A study of Cavia porcellus with 10 samples.

Results

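Aquaporins are membrane channels through which water crosses cells, and some of them, the aquaglyceroporins, also pass glycerol and urea. The genes described here are the aquaporins AQP1, AQP2, AQP3, AQP4, AQP5, AQP7, AQP8, AQP9 and AQP11, picked by name from a table of 25028 Ensembl genes of the guinea pig, 20251 of which carry a gene name. Of these 9 names, 7 had a row. AQP1 and AQP2 had none under those names and were not analysed here. AQP3, AQP4, AQP5 and AQP11 reached a stage mean of 3 TPM, the measure of relative transcript abundance used throughout, in all 3 stages and were among the 12645 genes tested. AQP7, AQP8 and AQP9 stayed below that operational threshold in every stage, so that their values rest on few reads.

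The tissue was the vaginal portion of the cervix of Hartley guinea pigs, an outbred strain, and no treatment was named for any group. There were 3 non-pregnant animals killed as they entered estrus (NP), 3 mid-term animals at 43.6 ± 0.5 days of gestation (MT) and 4 late-term animals at 65.2 ± 1.2 days that were not in labor (LT, gestation ages as mean ± SD). The gestation ages were estimated after death from the size of the fetuses, and the age of the mothers was not given in the sources used here. Each animal gave 1 strand-specific poly(A) library with between 18730665 and 27881572 reads counted on genes.

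The members fall into several kinds by what their channels are known to do. AQP3, AQP7 and AQP9 are aquaglyceroporins. AQP3 sits in the basolateral membrane of many epithelia and in the keratinocytes of stratified epithelia, AQP7 is best known from fat cells, and AQP9 from liver and leukocytes. AQP4 and AQP5 carry water alone. AQP4 is the main water channel of brain astrocytes and is also found in the basolateral membrane of several epithelia, whereas AQP5 lies in the apical membrane of secretory glands. AQP8 is a channel of epithelial and mitochondrial membranes, and AQP11 is an unusual member that resides inside the cell. In late pregnancy the cervix softens and takes up water, and its glands produce the mucus that closes the cervical canal.

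NP replicate 1 stood apart from the other NP animals over all genes. Its log2 TPM values correlated with those of the other NP animals at r = 0.924 and 0.945, against 0.966 to 0.990 for the other 10 pairs of animals of the same stage. Its summed TPM was 2.95 times that of the other NP animals on average for the squamous epithelium markers, 3.28 times for the smooth muscle markers and 1.07 times for the columnar and secretory epithelium markers. Of the 15 columnar and secretory genes with a row, NP replicate 1 was the lowest NP animal for 10 and the highest for 5. FOXA2, a transcription factor of glandular epithelium, was at 0.0650 TPM in NP replicate 1 and at 11.7 and 6.40 TPM in the others. PIGR, which carries immunoglobulin across secretory epithelium, was at 2.17 TPM in NP replicate 1 and at 97.5 and 70.2 TPM in the others. In contrast KRT7, a keratin of simple epithelia, was at 442 TPM in NP replicate 1 and at 241 and 202 TPM in the others. Values that rest on this animal are therefore given with and without it.

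The labelled tissue was checked against markers of its epithelium, and the basal keratin KRT14 and the epithelial adhesion molecule EPCAM were present in all animals. KRT14 ranged from 133 to 2825 TPM and EPCAM had stage means of 295 to 394 TPM. Single markers of the outer squamous layers were absent from some animals, with SPRR3 listed at 0 in MT replicates 2 and 3 and in each LT animal. Of the other cell types that use a member of the family, red blood cells were close to absent, with a summed TPM of 0.947 to 2.56 over the 7 erythroid markers with a row. GFAP, the defining filament of astrocytes, was at 0 in NP and MT and at no more than 0.0323 TPM in an LT animal. All values are from whole tissue, in which fewer cells of a type and less RNA per cell cannot be told apart.

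Over all tested genes, 793 were called higher and 1549 lower from NP to MT by limma at an adjusted P of 0.05. From MT to LT 851 were called higher and 2872 lower, and from NP to LT 1417 higher and 5301 lower. The median log2 change of all genes was -0.14, -0.16 and -0.28 in these comparisons. With TPM rescaled to equal median ratios these medians were -0.02, 0.00 and 0.00, and the calls were 1313 higher and 979 lower, 1776 higher and 1939 lower, and 3128 higher and 3157 lower. The changes of single aquaporins below stand against these shifts. EdgeR on the same 12645 genes called 1271 higher and 1009 lower from NP to MT and 1696 higher and 1971 lower from MT to LT. From NP to LT it called 2990 higher and 3257 lower. Limma without NP replicate 1 tested 12713 genes, and from NP to MT called 913 higher and 3289 lower. Its calls were 1236 higher and 4118 lower from MT to LT, and 1429 and 6365 from NP to LT. A log2 change is the later minus the earlier stage on the log2(TPM + 1) scale, on which low genes seem to change less than they do. It is given with its standard error (SE) and with limma's P-value adjusted over all 12645 genes, unless another tool is named. Log2 changes credited to edgeR are of normalized read counts.

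The 3 abundant aquaporins of those measured took different courses through pregnancy. AQP3 fell from NP to MT and rose again to LT, AQP4 rose from NP to MT and was still high at LT, and AQP5 was higher at LT than at NP. From NP to MT, AQP4 was called higher, where 6.27% of all tested genes were called higher, and AQP3 was called lower, where 12.2% of all tested genes were called lower. From MT to LT, AQP3 was called higher (6.73% of all genes) and no aquaporin was called lower (22.7% of all genes). From NP to LT, AQP4 and AQP5 were called higher (11.2% of all genes) and none was called lower (41.9% of all genes). Of the 4 tested, none was lower at an unadjusted P of 0.05 in these last 2 comparisons either, and edgeR with the same filter called none of them lower. AQP9, which did not pass the filter, is described below. With 4 members tested these counts are a description of the family, and they are read gene by gene below. The NP, MT and LT animals enter 2 comparisons each, so that the comparisons are not independent of one another.

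**Figure D1:**
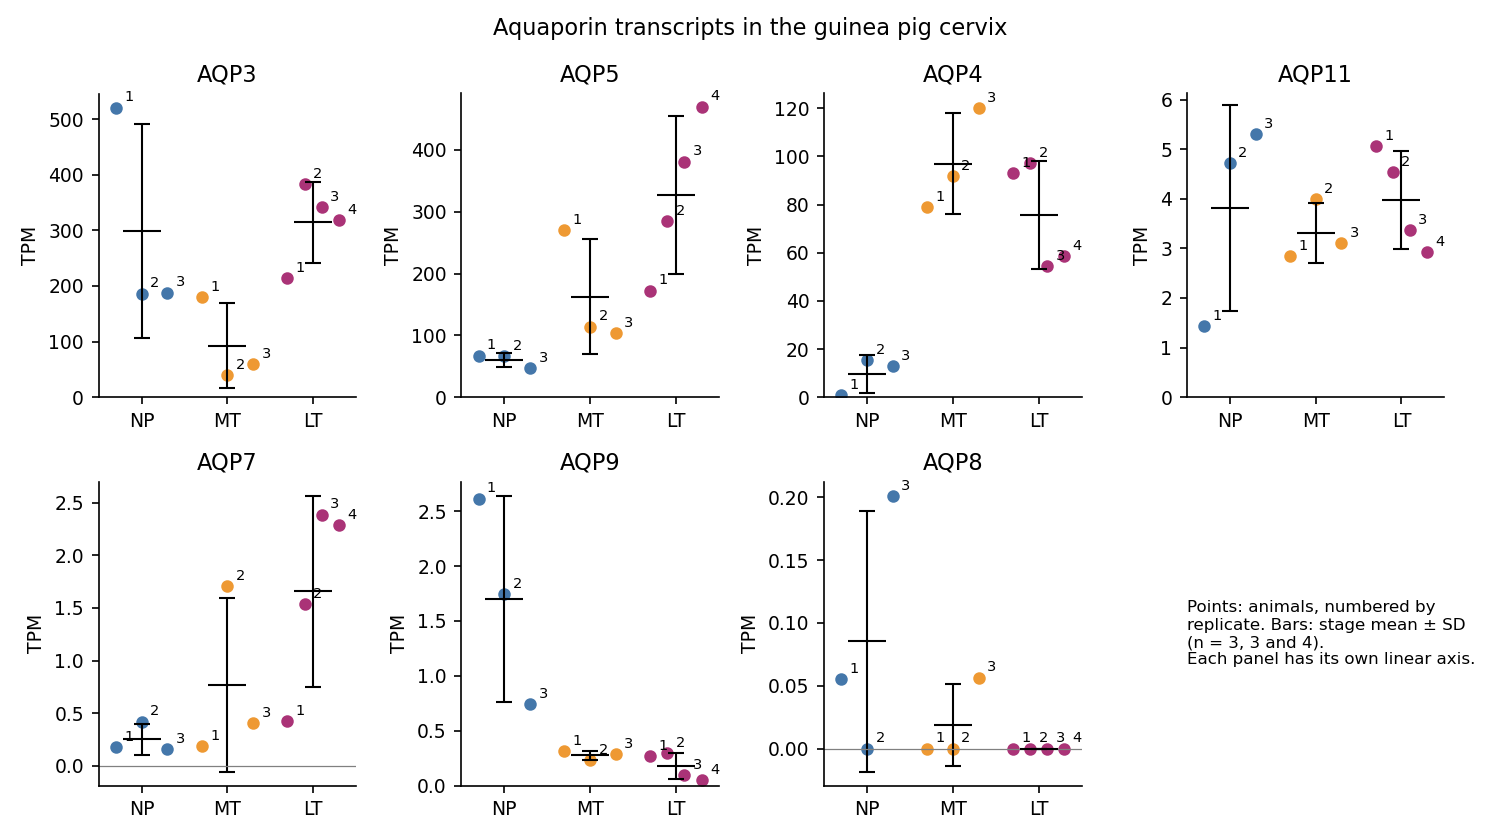
TPM of the 7 aquaporins with a row in each animal of the NP, MT and LT stages, with replicate numbers at the points and the stage mean ± SD (n = 3, 3 and 4) as bars, each panel on its own linear axis. AQP3 has its lowest values at MT, AQP4 is at most 15.3 TPM in the NP animals and at least 54.3 TPM in the others, AQP5 reaches 470.0 TPM at LT, and AQP7, AQP8 and AQP9 stay below 3 TPM throughout.

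AQP3 (ENSCPOG00000012277) was the most abundant of the 7 measured aquaporins in the non-pregnant cervix. It was measured at 521, 186 and 188 TPM in the 3 NP animals, at 179.7, 39.4 and 59.3 TPM in the MT animals and at 213.5, 383.5, 341.5 and 319 TPM in the LT animals. Each MT animal lay below each NP and each LT animal, although MT replicate 1 was only just below the lowest NP animal. The stage means ± SD (n = 3 in NP and MT and n = 4 in LT, here and below) were 298 ± 193 TPM in NP animals, 92.8 ± 75.9 TPM at MT and 314 ± 72.4 TPM at LT. Between 573 and 10552 reads stand behind the value of an animal, so that counting error is small beside the spread between animals.

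From NP to MT the mean of AQP3 was 3.21 times lower, with a log2 change of -1.80 (SE 0.54, adjusted P = 0.0462). The exact permutation test on square-root TPM gave P = 0.1, which is the lower limit for 3 animals against 3. This call lay close to the threshold and was kept under 6 of 23 alternative settings, with adjusted P-values from 0.00866 to 0.145. Of the fits that left out 1 animal, the call was kept only without MT replicate 1 (log2 change -2.42, adjusted P = 0.00866). Without NP replicate 1 the log2 change was -1.31 (adjusted P = 0.0852), and edgeR on the read counts gave -1.63 (adjusted P = 0.101). All of these fits had AQP3 lower in MT.

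Between MT and LT the mean of AQP3 was 3.39 times higher, a log2 change of 2.02 (SE 0.51, adjusted P = 0.0169). The exact permutation test gave P = 0.0286, the lower limit for 3 animals against 4. The call was kept under 20 of 23 settings. It was lost with the replicate number as a block (log2 change 2.00, adjusted P = 0.05), without MT replicate 2 (log2 change 1.56, adjusted P = 0.0727) and without MT replicate 3 (log2 change 1.85, adjusted P = 0.0567). These were the MT animals with the least AQP3. NP and LT animals overlapped, and the log2 change between these stages was 0.22 (SE 0.51, adjusted P = 0.731). Without NP replicate 1, whose AQP3 was 2.78 times that of the other NP animals on average, it was 0.71 (adjusted P = 0.241).

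The lowest and the highest animals for AQP3 were also the lowest and the highest for the summed transcripts of squamous epithelium. The summed TPM of the squamous list, of which 15 of 22 names had a row, was 3851, 1343 and 1270 in the NP animals, 1675, 269 and 550.4 in the MT animals and 1797, 2826, 3163 and 3733 in the LT animals. The lowest were MT replicates 2 and 3 and the highest was NP replicate 1. KRT14 made up much of the squamous sum, with 2825 of 3851 TPM in NP replicate 1 and 133 of 269 TPM in MT replicate 2. NP replicate 1 was the highest of all animals for 10 of the 15 genes. Of the 13 members of the list that were tested, 5 fell from NP to MT, where 12.2% of all genes fell, and none rose. The median log2 change was -0.99 against -0.14 over all genes, and -0.58 against -0.20 without NP replicate 1. At an unadjusted P of 0.05 there were 6 lower and none higher. In edgeR 5 were lower and none higher, where 1009 of 12645 genes were lower and 1271 higher. Those 5 were IVL, SPRR3, TGM1, MAL and CNFN, most of them genes of the outer, cornifying layers, whereas the basal keratin KRT14 had a log2 change of -1.82 (adjusted P = 0.0916). Of those 5, IVL, SPRR3, MAL and CNFN had still lower means at LT than at MT, unlike AQP3, and TGM1 had a higher one. From MT to LT 2 members rose, where 6.73% of all genes did, KRT14 with a log2 change of 2.5 (adjusted P = 0.0184) and the desmosomal cadherin DSC2 with 1.52 (adjusted P = 0.0484, and 0.0678 in edgeR). The fit without NP replicate 1 called 6 members higher and 1 lower from MT to LT, where it called 1236 of 12713 genes higher and 4118 lower. From NP to LT 5 of the 13 members fell, a share near the 41.9% of all genes, and none rose. In the fit without NP replicate 1 there were 2 higher and 4 lower, where 1429 of 12713 genes were higher and 6365 lower. The part of the squamous epithelium in the course of AQP3 was not tested.

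The genes whose log2 TPM was most like that of AQP3 over the 10 animals were KRT14, LYPD3 and LY6D. Pearson's r was 0.977, 0.972 and 0.967 over all animals, which share the same stages. LYPD3, a surface protein of stratified epithelia, had stage means of 105 TPM in NP animals, 21.3 TPM at MT and 128 TPM at LT. LY6D, another small surface protein, had stage means of 69.9, 8.35 and 81.7 TPM.

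AQP5 (ENSCPOG00000027598), the channel of secretory glands, was higher in every late-term than in any non-pregnant animal. Its values were 67.1, 66.3 and 47.0 TPM in the NP animals, 270.4, 114 and 103 TPM in the MT animals and 172, 285, 381 and 470.0 TPM in the LT animals. All pregnant animals lay above all NP animals, and the MT and LT animals overlapped through MT replicate 1 and LT replicate 1. The means were 60.1 ± 11.4 TPM in NP animals, 163 ± 93.6 TPM at MT and 327 ± 128 TPM at LT, backed by 711 to 8947 reads per animal.

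From NP to LT the mean of AQP5 was 5.44 times higher, with a log2 change of 2.35 (SE 0.39, adjusted P = 0.000941). The call held under all 23 settings, with adjusted P-values up to 0.00955 and log2 changes from 2.14 to 2.80 on the log scales. The log2 change was 2.44 without NP replicate 1 (adjusted P = 0.00182). The exact permutation test gave P = 0.0571 although the animals did not overlap. The steps on the way were not called by limma. From NP to MT the log2 change was 1.30 (SE 0.41, adjusted P = 0.0548), and 6 of 23 settings called it, among them edgeR with a log2 change of 1.54 (adjusted P = 0.0435). Without MT replicate 1 the MT mean was 109 TPM and the log2 change 0.86 (adjusted P = 0.137). From MT to LT the log2 change was 1.05 (SE 0.39, adjusted P = 0.0649), and 4 of 23 settings called it, with adjusted P-values from 0.0140 to 0.209.

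Unlike AQP3, AQP5 did not have its lowest values in the MT animals. In the NP stage its level was alike in NP replicate 1 and the others, with a ratio of 1.19, where AQP3 had 2.78 and the squamous list 2.95. The genes most like AQP5 over the 10 animals were KLF4, ENDOU and PTK6, with r = 0.978, 0.967 and 0.966. KLF4, a transcription factor of epithelial differentiation, had stage means of 37.4 TPM in NP animals, 83.8 TPM at MT and 155 TPM at LT. ENDOU, an endoribonuclease, ranged only from 6.49 to 8.68 TPM between stage means. PTK6, an epithelial tyrosine kinase, had low stage means of 0.380, 1.71 and 3.74 TPM.

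AQP4 (ENSCPOG00000004446) was scarce in the non-pregnant cervix and abundant in pregnancy. Its values were 0.759, 15.3 and 12.9 TPM in the NP animals, 79.0, 91.9 and 120.2 TPM in the MT animals and 93.0, 97.3, 54.3 and 58.5 TPM in the LT animals. The NP and pregnant animals did not overlap, and the MT and LT animals did. NP replicate 1 was below the operational threshold of 3 TPM with 17 reads, against 251 and 238 reads in the other NP animals, and it was the only animal below it.

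From NP to MT the mean of AQP4 rose 10.1-fold, from 9.65 ± 7.80 TPM to 97.0 ± 21.1 TPM. The log2 change was 3.71 (SE 0.70, adjusted P = 0.00695), and the exact permutation test gave P = 0.1, the smallest it allows. At LT the mean was 75.8 ± 22.5 TPM, a log2 change of 3.33 from NP (SE 0.65, adjusted P = 0.00224, exact permutation test P = 0.0286) and of -0.38 from MT (SE 0.65, adjusted P = 0.686). Both rises from NP were called under all 23 settings. Without NP replicate 1 the NP mean was 14.1 TPM and the log2 changes were smaller, 2.68 from NP to MT (adjusted P = 0.00074) and 2.30 from NP to LT (adjusted P = 0.000187).

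The NP animals were the lowest both for AQP4 and for the summed transcripts of columnar and secretory epithelium. The summed TPM of that list, of which 15 of 19 names had a row, was 1346 to 1513 in NP, 3740 to 6031 in MT and 8227 to 9810 in LT. In each LT animal most of it came from AGR2, a gene with stage means of 154, 2255 and 6718 TPM. Of its 13 tested members 8 rose and 2 fell from NP to MT, with a median log2 change of 1.56 against -0.14 over all genes, of which 6.27% rose and 12.2% fell. Between NP and LT 9 rose and 2 fell, with a median of 1.61 against -0.28 over all genes, of which 11.2% rose and 41.9% fell. These counts were 8 and 2, and 10 and 2, when NP replicate 1 was left out. The medians were then 1.62 and 1.33, against -0.20 and -0.35 over all genes. Over all 12713 genes of that fit 913 rose and 3289 fell from NP to MT, and 1429 and 6365 from NP to LT. SPDEF, a regulator of mucous cells, rose with a log2 change of 5.39 between NP and MT (adjusted P = 3.52e-05), and the gel-forming mucin MUC5B rose with 3.75 (adjusted P = 0.0098). The members that fell were the membrane mucin MUC4 (log2 change -1.69) and the epithelial transcription factor ELF3 (log2 change -1.11). From MT to LT 1 member rose, the secretory chaperone AGR2 (log2 change 1.66, adjusted P = 0.00559), and none fell, where 6.73% of all genes rose and 22.7% fell. The median log2 change of the list in this step was 0.04, against -0.16 over all genes. In edgeR 2 rose and none fell, where 1696 of 12645 genes rose and 1971 fell. The fit without NP replicate 1 had 1 higher and 2 lower, where 1236 of 12713 genes rose and 4118 fell. The part of this epithelium in the rise of AQP4 was not tested. Within the NP stage the list was split. NP replicate 1 was the lowest NP animal for AQP4 and for 10 genes of the list, among them MUC5B at 9.86 TPM against 102 and 115 TPM in the others. It was the highest for the other 5, CDH1, KRT7, MUC1, MUC4 and ELF3, and its summed TPM of 1513 was the highest of the NP animals.

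The genes most like AQP4 over the 10 animals were SLC44A4, TSPAN8 and ZDHHC23, with r = 0.992, 0.987 and 0.985. SLC44A4, a membrane transporter of epithelia, had stage means of 24.7 TPM in NP animals, 139 TPM at MT and 128 TPM at LT. TSPAN8, a tetraspanin, had stage means of 50.1, 224 and 175 TPM. ZDHHC23, a palmitoyltransferase, was at 4.77, 12.2 and 9.71 TPM.

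**Figure D2:**
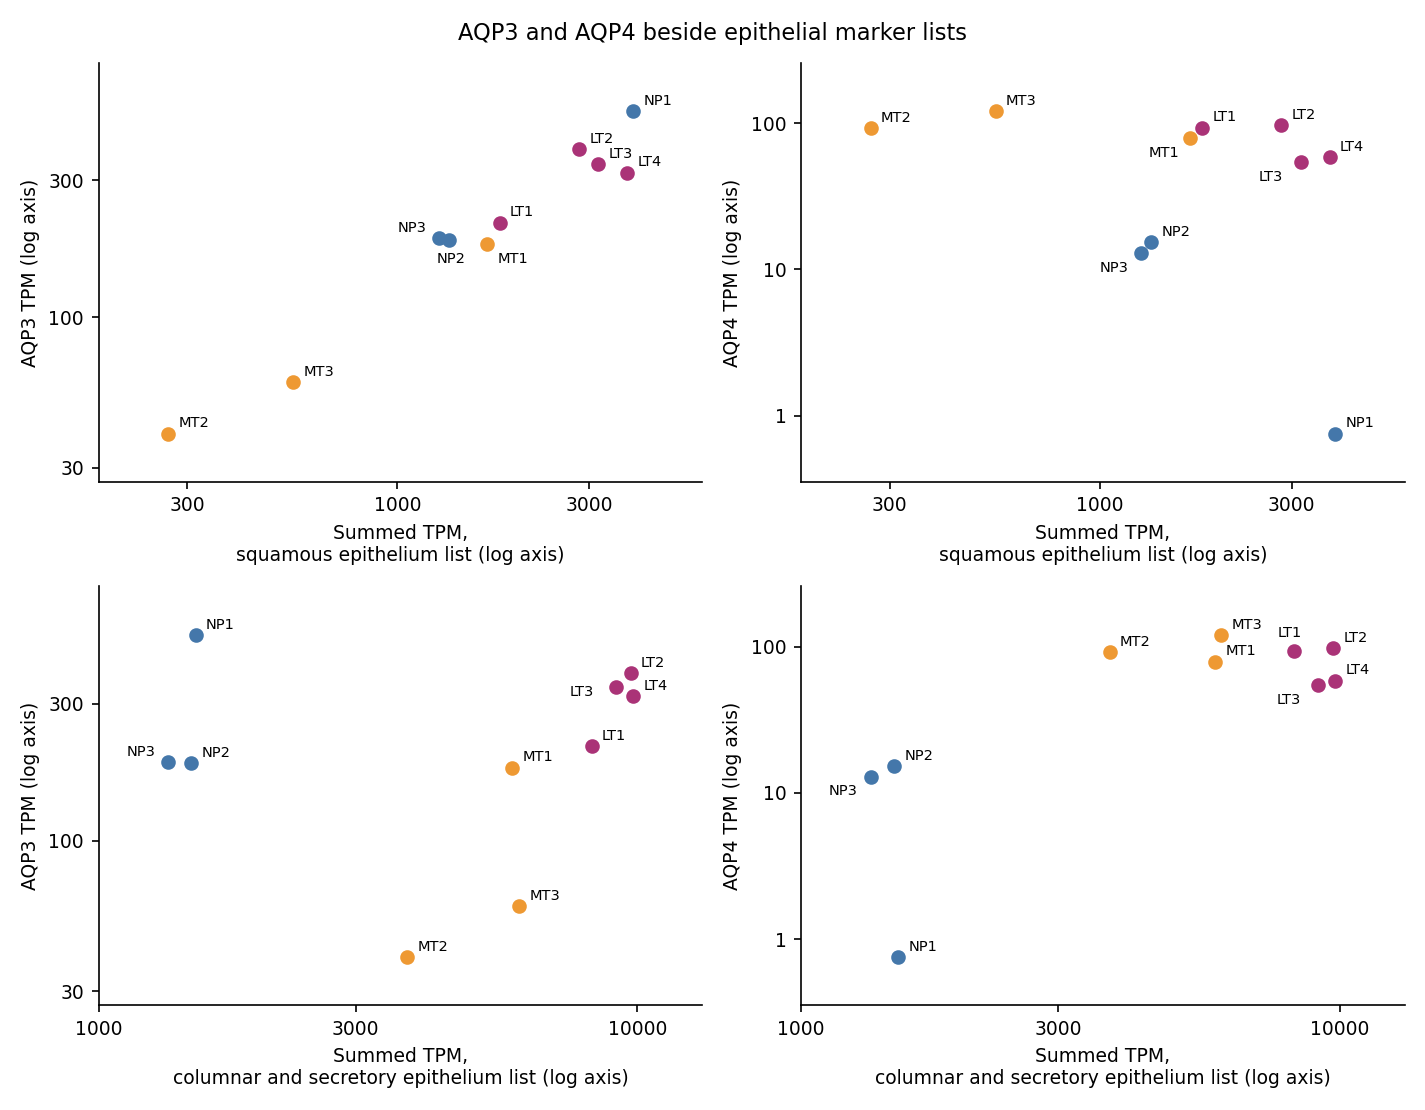
TPM of AQP3 (left) and AQP4 (right) in each of the 10 animals against the summed TPM of the squamous epithelium list (top) and of the columnar and secretory epithelium list (bottom), on log axes. AQP3 is lowest in MT replicates 2 and 3, where the squamous sum is 269 and 550.4, and AQP4 is lowest in the 3 NP animals, where the columnar and secretory sum is 1346 to 1513. KRT14 makes up much of the squamous sum, and AGR2 most of the columnar and secretory sum in each LT animal.

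AQP11 (ENSCPOG00000005258), the intracellular member, stayed near the operational threshold. It was measured at 1.44, 4.72 and 5.30 TPM in NP, at 2.84, 4.00 and 3.11 TPM in MT and at 5.06, 4.54, 3.37 and 2.93 TPM in LT, and 7 of 10 animals were above 3 TPM. All stages overlapped. Its log2 change was -0.05 between NP and MT (SE 0.34, adjusted P = 0.931), 0.19 from MT to LT (SE 0.32, adjusted P = 0.676) and 0.14 from NP to LT (SE 0.32, adjusted P = 0.727). The sign from NP to MT changed after median-ratio scaling, where the log2 change was 0.05. Without NP replicate 1, the lowest animal, the log2 change between NP and MT was -0.48 (adjusted P = 0.114) and that from NP to LT was -0.29 (adjusted P = 0.243). Its values rest on 27 to 99 reads per animal. The genes most like AQP11 were ADO, C2 and QDPR, with r = 0.954, 0.951 and 0.933.

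**Figure D3:**
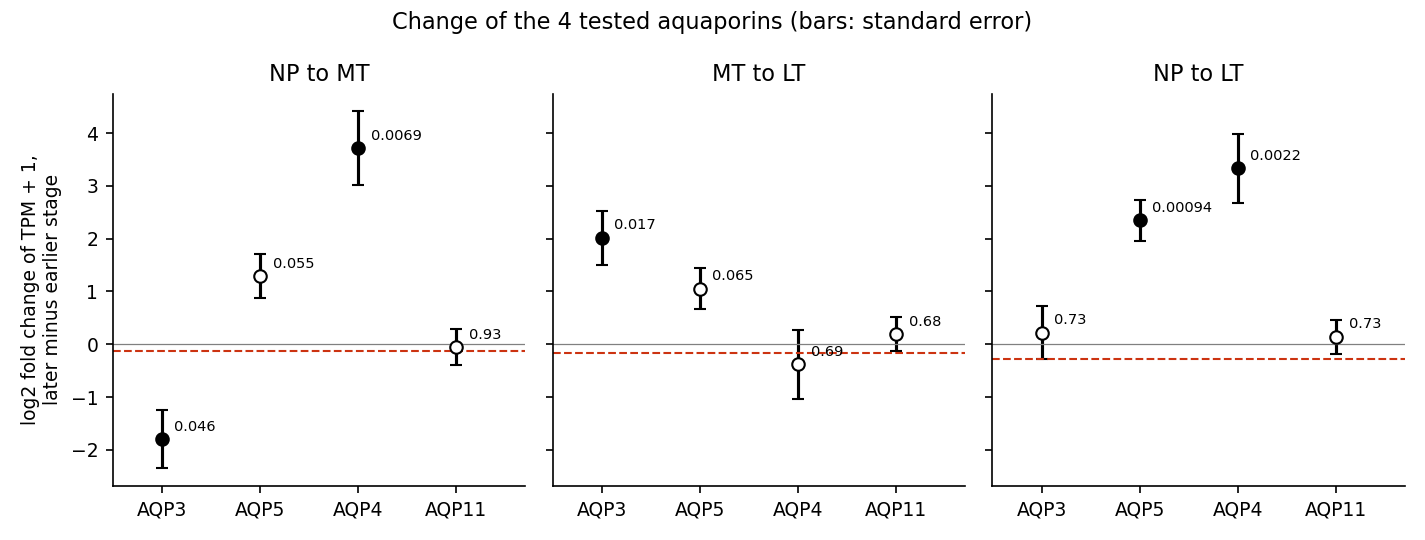
Log2 change of TPM + 1 (later minus earlier stage) of the 4 tested aquaporins in the 3 comparisons, with standard errors as bars and limma's adjusted P beside each point, filled where it is under 0.05. The dashed line is the median of all 12645 tested genes (-0.14, -0.16 and -0.28), and AQP4 from NP to MT and AQP4 and AQP5 from NP to LT lie farthest above it.

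The aquaglyceroporins AQP7 and AQP9 were detected at low levels, and edgeR called AQP7 higher and AQP9 lower from NP to LT. AQP7 (ENSCPOG00000012274) was at 0.175, 0.419 and 0.1598 TPM in NP, at 0.185, 1.71 and 0.404 TPM in MT and at 0.422, 1.53, 2.39 and 2.29 TPM in LT, from 3 to 61 reads. The LT animals lay above the NP animals, with LT replicate 1 just above the highest of them (exact permutation test, P = 0.0571). AQP7 was below the filter, and edgeR without a filter on 18100 genes gave a log2 change of 3.10 from NP to LT (adjusted P = 0.0163), in a fit that called 18.9% of genes higher and 18.5% lower.

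The 8 adipocyte markers did not move together. Their summed TPM was 790.8, 290.5 and 210.2 in the NP animals, 171 to 353 in MT and 271 to 592 in LT, so that it was highest in NP replicate 1, where AQP7 was at 0.175 TPM. FABP4, a fatty acid carrier that made up most of this sum, was at 711.5 TPM in NP replicate 1 and at no more than 520 TPM in the others. PLIN4 and LIPE were also highest in NP replicate 1, whereas the other 5 markers were highest in an LT animal. Of the 3 tested, CIDEA, a protein of lipid droplets, rose from NP to LT (log2 change 0.93, adjusted P = 0.0149), where 11.2% of all genes rose, and none was called in the other comparisons, where limma had 1 higher from NP to MT at an unadjusted P of 0.05 and edgeR called none. The adipokine LEP was at 0, 2.04, 5.92 and 2.10 TPM in the LT animals, in replicate order, and at no more than 0.1214 TPM in the NP and MT animals. ADIPOQ, another adipokine, was at 0.114, 3.39, 1.58 and 0.855 TPM in the LT animals and at no more than 0.363 TPM in the others. LT replicate 1 was the lowest LT animal for AQP7, LEP and ADIPOQ. MT replicate 2, which had 1.71 TPM of AQP7, had 0.1214 TPM of LEP and 0.0822 TPM of ADIPOQ. The part of fat cells in the level of AQP7 was not tested.

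AQP9 (ENSCPOG00000013234) was at 2.61, 1.75 and 0.743 TPM in NP, from 47, 23 and 11 reads. It was at 0.313, 0.2325 and 0.285 TPM in MT and at 0.268, 0.2998, 0.0994 and 0.0537 TPM in LT, from 1 to 6 reads per animal. All NP animals lay above all pregnant animals, which overlapped. By edgeR without a filter the log2 change was -2.48 between NP and MT (adjusted P = 0.0322), where 5.18% of genes were called lower, and -2.89 from NP to LT (adjusted P = 0.00393), where 18.5% were. The NP mean was 1.245 TPM without NP replicate 1, still above every pregnant animal. The exact permutation test gave P = 0.1 and P = 0.0286, the smallest each comparison allows. The summed TPM of the markers of myeloid cells, which are known to carry AQP9, was 4578 to 8437 in NP, 9054 to 13410 in MT and 15070 to 19380 in LT, and most of it came from S100A8 and S100A9, which squamous epithelium also makes. The other 8 markers summed to 126, 252 and 214 TPM in the NP animals, to 125 to 134 TPM in MT and to 177 to 307 TPM in LT, so that 2 of the 3 NP animals lay above every MT animal. Of the 10 myeloid markers tested 1 rose and 1 fell from NP to MT, near the shares of all genes (6.27% and 12.2%). Without NP replicate 1 there were 1 higher and 3 lower, where 913 of 12713 genes were higher and 3289 lower. The step from MT to LT had 4 higher and 0 lower, also in edgeR and at an unadjusted P of 0.05, where 6.73% of all genes rose and 22.7% fell. In edgeR 1696 of 12645 genes rose and 1971 fell in that step. Between NP and LT 5 rose and 2 fell, where 11.2% of all genes rose and 41.9% fell. The markers that rose were CD163 (log2 change 2.30), CSF3R (1.97), S100A8 (1.67), CD14 (1.41) and S100A9 (1.30), of which CD163 and CD14 are macrophage receptors and CSF3R is a receptor of neutrophils. Those that fell were AIF1, a macrophage protein (log2 change -0.89, adjusted P = 0.0159), and PTPRC, the CD45 antigen of leukocytes (-0.98, adjusted P = 0.0154), and AIF1 was also the marker that fell from NP to MT (-1.0, adjusted P = 0.0329). The part of these cells in the level of AQP9 was not tested.

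AQP8 (ENSCPOG00000005219) had 5 reads in all, 1 and 3 reads in NP replicates 1 and 3 and 1 read in MT replicate 3. A count of 0 allows up to 3 reads, which are worth 0.148 to 0.233 TPM of AQP8 per animal, for counting error only. Expression of AQP8 was thus not detectable at this depth in 7 of 10 animals, and no change was read from it. Over the 3 stages the exact permutation of the one-way F statistic gave P = 0.00476 for AQP4, 0.00524 for AQP9, 0.0167 for AQP5, 0.0529 for AQP3, 0.0967 for AQP7, 0.15 for AQP8 and 0.851 for AQP11. These 7 tests and 21 exact tests between pairs of stages were run on the aquaporins, and their P-values are unadjusted.

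The order of the measured aquaporins by TPM, which is a level per transcript length, changed between stages. In NP, AQP3 lay above AQP5 in all 3 animals and AQP5 above AQP4, with no overlap between the neighbours. AQP4 and AQP11 overlapped in NP, as did AQP11 and AQP9. In MT the order of the means was AQP5, AQP4 and AQP3, but these neighbours overlapped and did not differ beyond their spread. In LT, AQP5 and AQP3 overlapped and AQP5 was the higher in 2 of 4 animals, and both lay above AQP4 in every animal. AQP11 lay below these 3 genes in every MT and LT animal.

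AQP3, AQP4 and AQP5 held between 97.5% and 99.4% of the summed TPM of the 7 measured aquaporins in an animal. AQP1 and AQP2, which had no row, are not in that sum. That sum was 593, 275 and 254 TPM in NP, 532, 251 and 287 TPM in MT and 485, 772.5, 783 and 852 TPM in LT. The NP and MT sums overlapped, and LT replicate 1 lay below the highest NP and MT animals. AQP3 held 67.8% to 87.8% of the sum in NP, 15.7% to 33.7% in MT and 37.4% to 49.6% in LT. AQP4 held 0.128% to 5.57% in NP, 14.8% to 41.9% in MT and 6.86% to 19.2% in LT. AQP5 held 11.3% to 24.1% in NP, 36.0% to 50.8% in MT and 35.6% to 55.1% in LT.

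The ratio of AQP5 to AQP3 separated the stages although the levels of AQP5 alone, or AQP3 alone, did not separate all of them. It was 0.129, 0.356 and 0.25 in NP, 1.51, 2.90 and 1.74 in MT and 0.807, 0.744, 1.12 and 1.47 in LT. Each NP animal lay below each LT animal and each LT animal below each MT animal, with MT replicate 1 and LT replicate 4 next to each other. This ratio was chosen after the values were seen and is a description without a test.

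**Figure D4:**
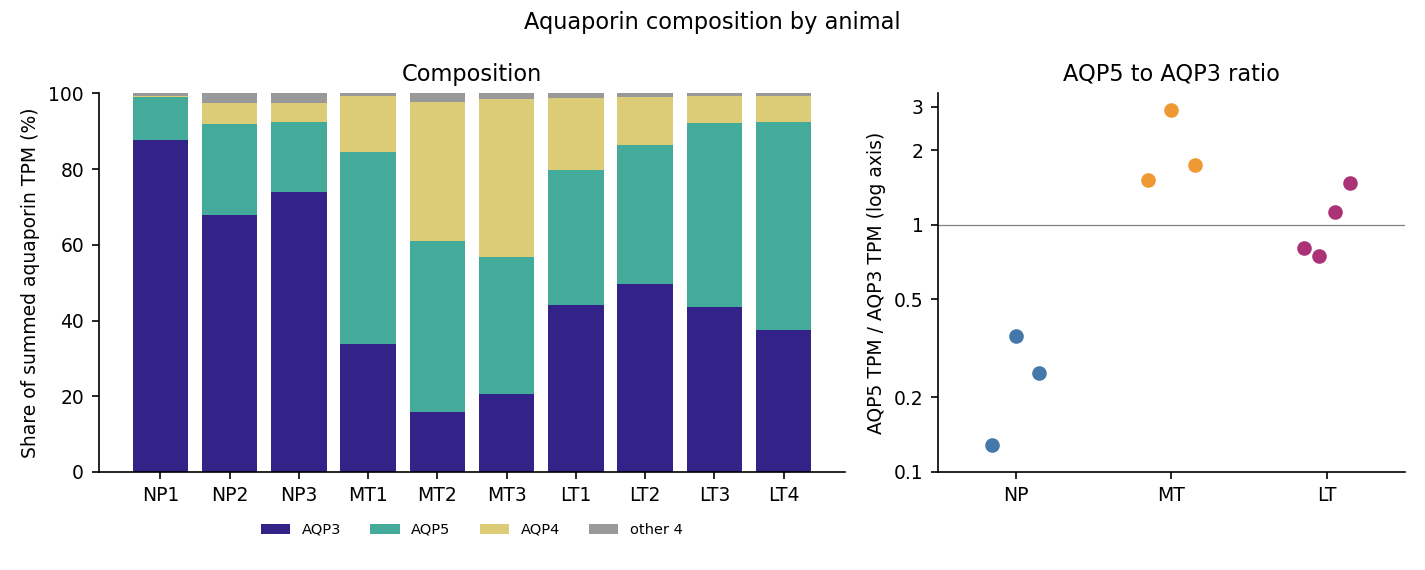
Left, share of AQP3, AQP5, AQP4 and the other 4 measured aquaporins in the summed aquaporin TPM of each animal, in percent. Right, ratio of AQP5 TPM to AQP3 TPM in each animal by stage, on a log axis. AQP3 holds at least 67.8% of the sum in each NP animal and at most 49.6% in each pregnant animal, and the ratio is 0.129 to 0.356 in NP, 1.51 to 2.90 in MT and 0.744 to 1.47 in LT.

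Water follows salt across an epithelium, so the ion channels and pumps of fluid-moving epithelia were looked at beside the aquaporins. Of 32 names 18 had a row and 16 were tested. From NP to MT 5 rose and none fell, where 6.27% of all genes rose and 12.2% fell, with a median log2 change of 0.39 against -0.14 over all genes. At an unadjusted P of 0.05 there were 8 higher and 1 lower. EdgeR called 6 higher and 1 lower, against 1271 higher and 1009 lower of all 12645 genes. Among the called genes the chloride channel regulator CLCA1 changed most, with a log2 change of 6.27 (adjusted P = 0.000212), followed by FXYD4, a regulator of the sodium pump, with 2.33 (adjusted P = 0.00235) and the sodium-proton exchanger SLC9A2 with 1.55 (adjusted P = 0.0371, and 0.0571 in edgeR). In the step from MT to LT 2 rose and 3 fell, where 6.73% of all genes rose and 22.7% fell. FXYD4 rose further with a log2 change of 1.91 (adjusted P = 0.00389), while SLC9A2 fell by 1.37 (adjusted P = 0.0328, and 0.0769 in edgeR) and the chloride channel ANO1 fell by 1.32 on the log2 scale (adjusted P = 0.00638). From NP to LT 6 rose and 3 fell, where 11.2% of all genes rose and 41.9% fell, with a median of 0.69 against -0.28 over all genes. Without NP replicate 1 that median was 0.365 against -0.351. CLCA1 (log2 change 6.52), FXYD4 (4.25) and SCNN1G, a subunit of the epithelial sodium channel (1.34, adjusted P = 0.00241), changed most among the called genes.

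FXYD4 was the gene of this list with a rise in both steps. Its mean was 2.16 ± 0.323 TPM in NP animals, 16.0 ± 6.70 TPM at MT and 61.4 ± 21.1 TPM at LT. Without NP replicate 1 the list had 4 higher and 1 lower from NP to MT, 2 higher and 4 lower from MT to LT and 8 higher and 3 lower from NP to LT. Of the 12713 genes of that fit 913, 1236 and 1429 were higher and 3289, 4118 and 6365 lower. CLCA1 was at 0.2999 TPM in NP replicate 1 and at 2.91 and 1.55 TPM in the other NP animals, an order of the NP animals like that of AQP4.

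Genes of glycerol and urea handling, which share their substrates with AQP3, AQP7 and AQP9, had 1 or 2 calls in each comparison. Of 13 names 12 had a row and 7 were tested, and 1 rose from NP to MT, 1 rose and 1 fell from MT to LT, and 1 rose and 1 fell from NP to LT. Over all genes 6.27%, 6.73% and 11.2% rose and 12.2%, 22.7% and 41.9% fell in these comparisons. The gene that rose each time was MGLL, the lipase that releases glycerol from monoglycerides, with means of 50.2 ± 5.46 TPM in NP animals, 108 ± 18.8 TPM at MT and 164 ± 40.3 TPM at LT. Its log2 change was 1.09 between NP and MT (adjusted P = 0.0058), 0.58 from MT to LT (adjusted P = 0.04) and 1.66 from NP to LT (adjusted P = 0.000176). LPIN1, a phosphatidate phosphatase, fell by 0.65 on the log2 scale from MT to LT (adjusted P = 0.00505) and by 0.90 from NP to LT (adjusted P = 0.000349). With NP replicate 1 left out there were 1 higher and 0 lower from NP to MT, and 2 higher and 2 lower in each of the other comparisons. That fit called 913, 1236 and 1429 of 12713 genes higher and 3289, 4118 and 6365 lower.

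In the kidney, vasopressin moves aquaporins to the cell surface through cAMP. Of the 20 genes listed for this route 15 had a row and 12 were tested. Between NP and MT 1 rose and 1 fell, from MT to LT 2 fell, and from NP to LT 1 rose and 5 fell. Over all genes 6.27% rose and 12.2% fell from NP to MT, 22.7% fell from MT to LT, and 11.2% rose and 41.9% fell from NP to LT, so that these counts are near the background. The gene that rose was EZR, a linker between the membrane and actin, with a log2 change of 1.34 between NP and MT (adjusted P = 0.00424) and of 1.62 from NP to LT (adjusted P = 0.000322). CREB1, the transcription factor that cAMP activates, fell by 0.37 on the log2 scale from NP to MT (adjusted P = 0.0397, and 0.0744 in edgeR), by 0.48 from MT to LT (adjusted P = 0.00778) and by 0.85 from NP to LT (adjusted P = 0.00022). AKAP13, an anchor of protein kinase A, fell by 0.49 from MT to LT (adjusted P = 0.0172) and by 0.62 from NP to LT (adjusted P = 0.00267). The median of the list was -0.06, -0.22 and -0.11 in these comparisons, against -0.14, -0.16 and -0.28 over all genes. In edgeR the list had 2 higher and 0 lower from NP to MT, and 3 higher and 2 lower from NP to LT. EdgeR called 1271 higher and 1009 lower of 12645 genes from NP to MT, and 2990 and 3257 from NP to LT. With NP replicate 1 left out limma called 1 higher and 3 lower of 13 tested from NP to MT, 0 higher and 5 lower from MT to LT, and 1 higher and 6 lower from NP to LT. Over all 12713 genes of that fit 913, 1236 and 1429 were higher and 3289, 4118 and 6365 lower in these comparisons. The vasopressin receptor AVPR2 stayed below the operational threshold in its stage means, at 0.321, 2.86 and 1.24 TPM.

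The osmotic stress response list held 12 names, 11 with a row and all of these tested. Between NP and MT SLC6A6, the taurine transporter, rose with a log2 change of 1.16 (adjusted P = 0.0251) and the chaperone HSPA4L fell by 0.79 (adjusted P = 0.0288, and 0.0756 in edgeR), 1 call each way where 6.27% of all genes rose and 12.2% fell. Between MT and LT 3 fell and none rose in limma, where 2 were higher at an unadjusted P of 0.05. The 3 of 11 that fell are a share near the 22.7% of all genes. Those that fell were SLC6A6 (log2 change -2.02, adjusted P = 0.00221), the osmotic transcription factor NFAT5 (-1.28, adjusted P = 0.00157) and the inositol transporter SLC5A3 (-0.90, adjusted P = 0.0133). NFAT5 had means of 33.2 ± 3.45 TPM in NP animals, 29.6 ± 2.94 TPM at MT and 11.5 ± 0.598 TPM at LT. Between NP and LT 3 fell, where 41.9% of all genes did. They were NFAT5 (log2 change -1.45), the volume-regulated channel subunit LRRC8C (-0.87) and SLC6A6 (-0.86, with an adjusted P of 0.0252, and 0.0593 in edgeR). The median of the list was -0.08, -0.12 and -0.18 in these comparisons, against -0.14, -0.16 and -0.28 over all genes. In edgeR it had 2 higher and 3 lower from MT to LT, and 2 higher and 2 lower from NP to LT. EdgeR called 1696 higher and 1971 lower of 12645 genes from MT to LT, and 2990 and 3257 from NP to LT. Limma called 1 higher and 4 lower from MT to LT without NP replicate 1, and 0 higher and 4 lower from NP to LT. That fit called 1236 higher and 4118 lower of 12713 genes from MT to LT, and 1429 and 6365 from NP to LT.

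**Figure D5:**
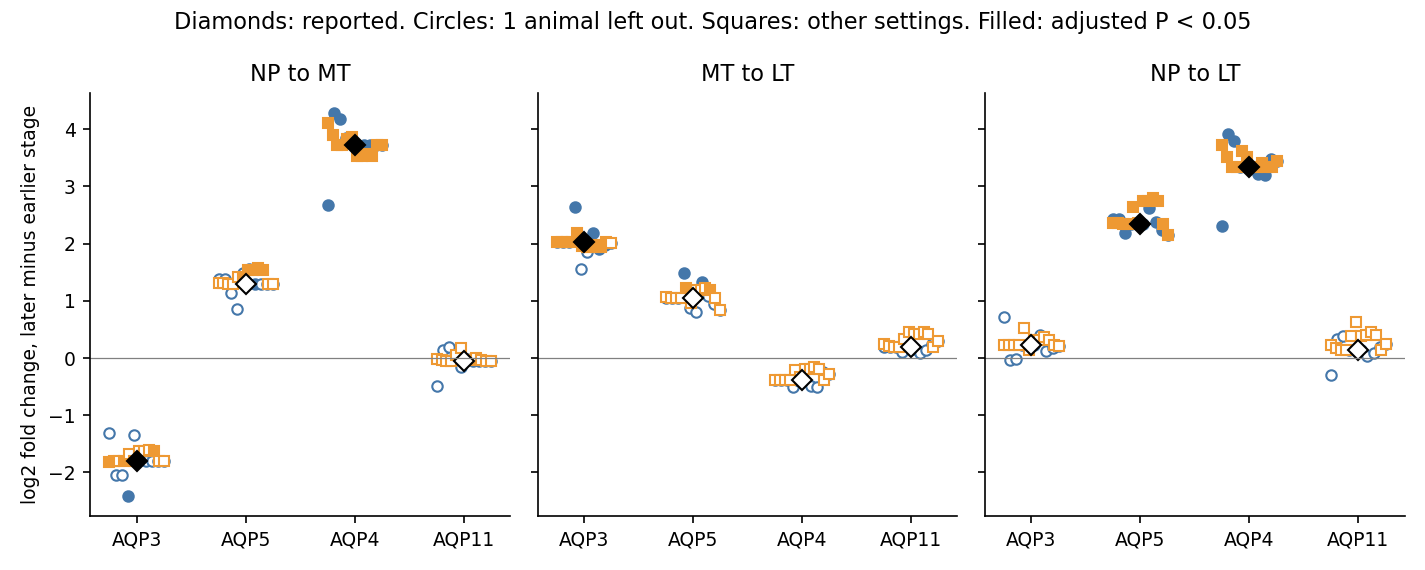
Log2 change of the 4 tested aquaporins as reported (diamonds), with each animal left out in turn (circles) and under the other settings on a log scale (squares), filled where the adjusted P was under 0.05. The calls of AQP4 from NP to MT and of AQP4 and AQP5 from NP to LT stay filled in all of them, that of AQP3 from NP to MT in few.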

How the data were processed

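The authors deposited 1 table of read counts per Ensembl gene and the TPM values they derived from those counts, for 10 libraries. Per the labels and the study's methods, reads (CASAVA 1.8.2) were aligned to cavPor3 with TopHat2 and counted with HTSeq 0.5.4p1. The TPM values of an animal sum to a constant, so that each gene's value depends on the abundance of the rest. Aquaporins were matched by gene name, and no sequence or coordinate was used.

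Log2(TPM + 1) was tested with limma 3.58.1 (trend, R 4.3.3), two-sided, in a single fit of the 10 animals without covariates, with Benjamini-Hochberg adjustment over 12645 genes whose mean reached 3 TPM in any stage. Exact permutation tests used square-root TPM. The 23 alternatives included edgeR 4.0.16 and DESeq2 1.42.0 on the counts. The aquaporins, gene lists and tests were chosen with earlier results of these data known. From each pathway list, at most 3 called genes per comparison, those with the largest changes, were named. The likeness of a gene was Pearson's r of log2(TPM + 1) over the 10 animals, and the 3 named genes with the highest r were given. Of the marker lists, those of endothelium, fibroblasts, smooth muscle, skeletal muscle and glia are given in the closing section.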

Additional observations from a re-analysis of the deposited data

How the results depend on the processing

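Of 276 results for the 4 tested aquaporins under 23 alternatives, 238 kept their direction and their side of the threshold, 20 lost their call, 10 gained one and 8 changed sign. The rises of AQP4 from NP to MT and of AQP4 and AQP5 from NP to LT held under all 23. The number of aquaporins called from NP to MT, 2 as reported, was 1 (AQP4) with square-root TPM, median-ratio scaling, only the 2 stages compared and the replicate block, and 1 to 2 with an animal left out. It was 3 with the filter at 1 TPM (AQP3, AQP4 and AQP9), with quantile normalization and DESeq2 (AQP3, AQP4 and AQP5) and with edgeR without a filter (AQP4, AQP5 and AQP9). In edgeR with the filter the 2 called were AQP4 and AQP5, and in limma without a filter AQP4 and AQP9. From MT to LT, where AQP3 was called, it was 2 (AQP3 and AQP5) with median-ratio scaling and with DESeq2, 0 with the replicate block and 0 to 2 with an animal left out. From NP to LT it was 4 (AQP4, AQP5, AQP7 and AQP9) with no filter, with the filter at 1 TPM and with edgeR without a filter, settings in which more genes are tested, and 2 with every animal left out in turn. Over all genes, the calls from NP to MT were 1103 with only the 2 stages compared and 1099 to 4202 with an animal left out, the lowest without MT replicate 3 and the highest without NP replicate 1. The calls over all genes were 1944 to 5354 from MT to LT and 5279 to 7794 from NP to LT with an animal left out. Signs changed only for log2 changes near 0. AQP3 from NP to LT (0.22) was at -0.0268 without NP replicate 2 and at -0.0197 without NP replicate 3, and -0.0268 to 0.713 over the animals left out. AQP11 from NP to MT (-0.05) was at 0.0531 with median-ratio scaling and 0.172 with quantile normalization, and -0.485 to 0.201 over the animals left out, with a positive sign without NP replicate 2, NP replicate 3 or MT replicate 1. AQP11 from NP to LT (0.14) was at -0.292 without NP replicate 1 and at 0.393 without NP replicate 3, the ends of the range over the animals left out, and at 0.624 with quantile normalization. The cause of these differences was not tested.

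The stages share replicate numbers in the labels, but the numbers did not pair the animals. Deviations of same-numbered animals correlated at -0.287 to 0.254, with 3 of 9 above 0.1, and those of other pairs at -0.271 to 0.311. With the replicate number as a block, 1693 genes were called from MT to LT, 414 higher and 1279 lower, and AQP3 changed there by 2.00 on the log2 scale (adjusted P = 0.05). In libraries of 18730665 or more reads, AQP3 and AQP5 had at least 573 and 711 reads per animal, and AQP4 at least 17. Their results near the threshold, AQP3 from NP to MT and both steps of AQP5, changed with the animals and settings used. For AQP7, AQP8 and AQP9 the number of reads limits what can be seen.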

Other observations

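The remaining marker lists show what else moved in the tissue over the same stages. Endothelial genes fell late in pregnancy. Of 13 tested, 1 fell from NP to MT, 11 fell from MT to LT and 11 fell from NP to LT, where 12.2%, 22.7% and 41.9% of all genes fell, with a median log2 change of -1.18 in the last comparison against -0.28 over all genes, and their summed TPM was 396 to 519 in NP, 356 to 502 in MT and 230.5 to 295 in LT. Without NP replicate 1 there were 3, 12 and 12 that fell, where that fit called 3289, 4118 and 6365 of 12713 genes lower. Of 7 fibroblast genes tested, 2 fell from NP to MT, 1 rose and 2 fell from MT to LT, and 4 fell from NP to LT, where 12.2%, 22.7% and 41.9% of all genes fell and 6.73% rose from MT to LT. Of 10 smooth muscle genes none was called from NP to MT by limma, at an unadjusted P of 0.05 or by edgeR. SMTN rose from MT to LT (6.73% of all genes rose) and TAGLN from NP to LT (11.2%). Without NP replicate 1 there were 4 and 7 that rose, where that fit called 1236 and 1429 of 12713 genes higher. Of 3 glial genes tested, none was called from NP to MT (1 lower at an unadjusted P of 0.05 and without NP replicate 1, none in edgeR), 1 fell from MT to LT and 2 fell from NP to LT, and of 3 skeletal muscle genes tested 1 fell from MT to LT, where 22.7% and 41.9% of all genes fell in these comparisons. AQP6, a member of the family outside the names chosen, was at 0.0465 to 1.81 TPM over the 10 animals, below the operational threshold in each of them.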
